A study of Mus musculus with 12 samples.

Results

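The endothelium is the single layer of cells that lines blood vessels, and the vessels of the limb are laid down before its bones. The results below describe 10 genes that mark this layer in the embryonic mouse hand and foot plate: Kdr, Flt1, Pecam1, Cdh5, Tek, Tie1, Eng, Esam, Cldn5 and Aplnr. All probe sets annotated to exactly 1 of these genes were taken, which gave 16 of the 45265 probe sets in the series, 15 of 22690 on array design A and 1 of 22575 on array design B of the Affymetrix MOE430 set. The study measured RNA of dissected wild-type autopods, the hand and foot plates, of E12.5 mouse embryos. There were 3 hindlimb samples, numbered 12, 14 and 26, and 3 forelimb samples, numbered 11, 13 and 25, each hybridised to both designs, 12 arrays in all. No sample carried a mutation or a treatment according to the labels. The labels do not say whether a sample was 1 embryo or a pool, nor whether samples were separate animals, so each p-value covers the spread among these samples and nothing wider, and that spread may be technical. On design A the tissue label of forelimb 11 does not say which limb it was, and the letter in its title placed it with the forelimbs.

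The samples carried the markers of their limb. Pitx1, a homeobox factor of the hindlimb, averaged 552 in hindlimb and 120 in forelimb samples, and the forelimb factor Tbx5 77.6 in hindlimb and 1284 in forelimb samples (limma adjusted p = 0.00441 for both). Forelimb 11 had a Tbx5 signal of 1145 and a Pitx1 signal of 159.8 on these probe sets. Hoxd13 and Hoxa13, which pattern the autopod, were measured above the filter in both limbs. All values are scaled signals, arbitrary units of probe set brightness, set to a common trimmed mean of 500 on each array. A probe set was tested where 3 or more of the 6 arrays of its design gave a signal of 100 or higher. On single arrays 65.5% to 68.1% of A and 72.7% to 75.5% of B probe sets were that bright. A difference is the hindlimb mean of log2(signal + 32) minus the forelimb mean, and the 32 added makes the change of a dim probe set look smaller than it is. The brightness of different probe sets was not compared, since each has its own response.

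Endothelial cells answer 2 families of growth factor through receptor tyrosine kinases. Kdr and Flt1 are the receptors for vascular endothelial growth factors: Kdr carries most of the growth and migration signal, and Flt1 binds the ligand tightly and in its soluble form acts as a trap. Tek, also called Tie2, is the angiopoietin receptor and Tie1 is its partner without a firmly assigned ligand of its own. Cdh5 (VE-cadherin), Pecam1, Esam and Cldn5 are adhesion proteins of the junctions between endothelial cells. Eng, endoglin, is a coreceptor for TGF-beta family ligands, and Aplnr is the receptor for the peptides apelin and Elabela.

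RefSeq promoter windows of GRCm38.p6 were found for 6 of the 10 genes (Kdr, Flt1, Tek, Tie1, Eng and Cldn5). Many endothelial genes are bound by ETS factors, whose core is GGAA, so the 250 bases before each start were searched on both strands for AGGAAG and CGGAAG. The 4 receptor tyrosine kinase genes are shown because they form the pairs compared later. The windows lie at chr5:75978456-75978705 on the minus strand for Kdr, chr5:147726012-147726261 on the minus strand for Flt1, chr4:94739039-94739288 on the plus strand for Tek and chr4:118489850-118490099 on the minus strand for Tie1. Each is written 5′ to 3′ along its gene, ends at the base before the annotated start, and has the matches in capitals.
Kdr: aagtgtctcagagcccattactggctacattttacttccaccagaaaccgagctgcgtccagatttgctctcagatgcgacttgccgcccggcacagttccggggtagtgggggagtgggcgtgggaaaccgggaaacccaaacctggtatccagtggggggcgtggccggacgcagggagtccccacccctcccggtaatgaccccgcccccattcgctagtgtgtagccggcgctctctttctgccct
Flt1: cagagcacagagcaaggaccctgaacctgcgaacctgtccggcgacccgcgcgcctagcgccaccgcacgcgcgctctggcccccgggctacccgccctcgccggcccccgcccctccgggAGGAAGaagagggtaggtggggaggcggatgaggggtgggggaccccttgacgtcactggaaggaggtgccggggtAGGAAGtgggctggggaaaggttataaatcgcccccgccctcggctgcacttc
Tek: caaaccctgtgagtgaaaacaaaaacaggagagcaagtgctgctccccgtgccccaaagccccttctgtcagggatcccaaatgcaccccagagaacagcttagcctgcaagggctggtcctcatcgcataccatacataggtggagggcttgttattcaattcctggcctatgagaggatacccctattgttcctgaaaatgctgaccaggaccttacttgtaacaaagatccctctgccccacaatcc
Tie1: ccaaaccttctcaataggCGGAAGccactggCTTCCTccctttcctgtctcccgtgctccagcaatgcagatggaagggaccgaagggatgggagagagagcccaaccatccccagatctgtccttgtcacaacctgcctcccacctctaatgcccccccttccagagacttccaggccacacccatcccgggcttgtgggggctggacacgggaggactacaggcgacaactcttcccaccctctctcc
The Flt1 window held AGGAAG at 124 and 48 bases before the start. The Tie1 window held CGGAAG at 227 bases and AGGAAG on the other strand at 214 bases, printed there as its reverse complement. Neither sequence was found in the windows of Kdr and Tek, nor in that of Cldn5, while the Eng window held AGGAAG 2 times, at 47 bases on the other strand and at 1 base. In all 3 of the 6 windows held either sequence, and 39.2% of 32851 promoter windows of the same length did so. AGATAA, which holds the core bound by GATA factors, was in 0 of the 6 windows and in 9.99% of all windows. These matches are letters in a window and not measured binding. Bare GGAA was not searched for, and on either strand it also occurs, not capitalised, in the Kdr and Tek windows.

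Of the 15 A-array probe sets, 12 passed the filter, and they covered 9 of the 10 genes. The probe set of Tie1 and the dimmest probe sets of Flt1 and Eng did not pass. None of the 12 differed between hindlimb and forelimb at an adjusted p under 0.05 (limma, lowest 0.632), where 5 of 15338 tested probe sets, or 0.0326%, did so. On the B array the count was 0 of 1, and 0.0117% of 17145 tested probe sets passed. At an unadjusted limma p under 0.05 the count was 1 of 12 on the A array, where 5.54% of all tested probe sets reached it, and 0 of 1 on the B array, where 5.54% also did. Signals of the limbs did not overlap in 2 of 12, where 11.04% of all tested probe sets had this, and in 0 of 1 on the B array, where 10.9% had it. These shares lie close to the background, with 1 probe set making up 8.33% of the 12. The median absolute difference between limbs of the tested endothelial probe sets was 0.13 against 0.11 over all tested A probe sets, and their median SD within a limb was 0.18 against 0.19 (log2).

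**Figure D1:**
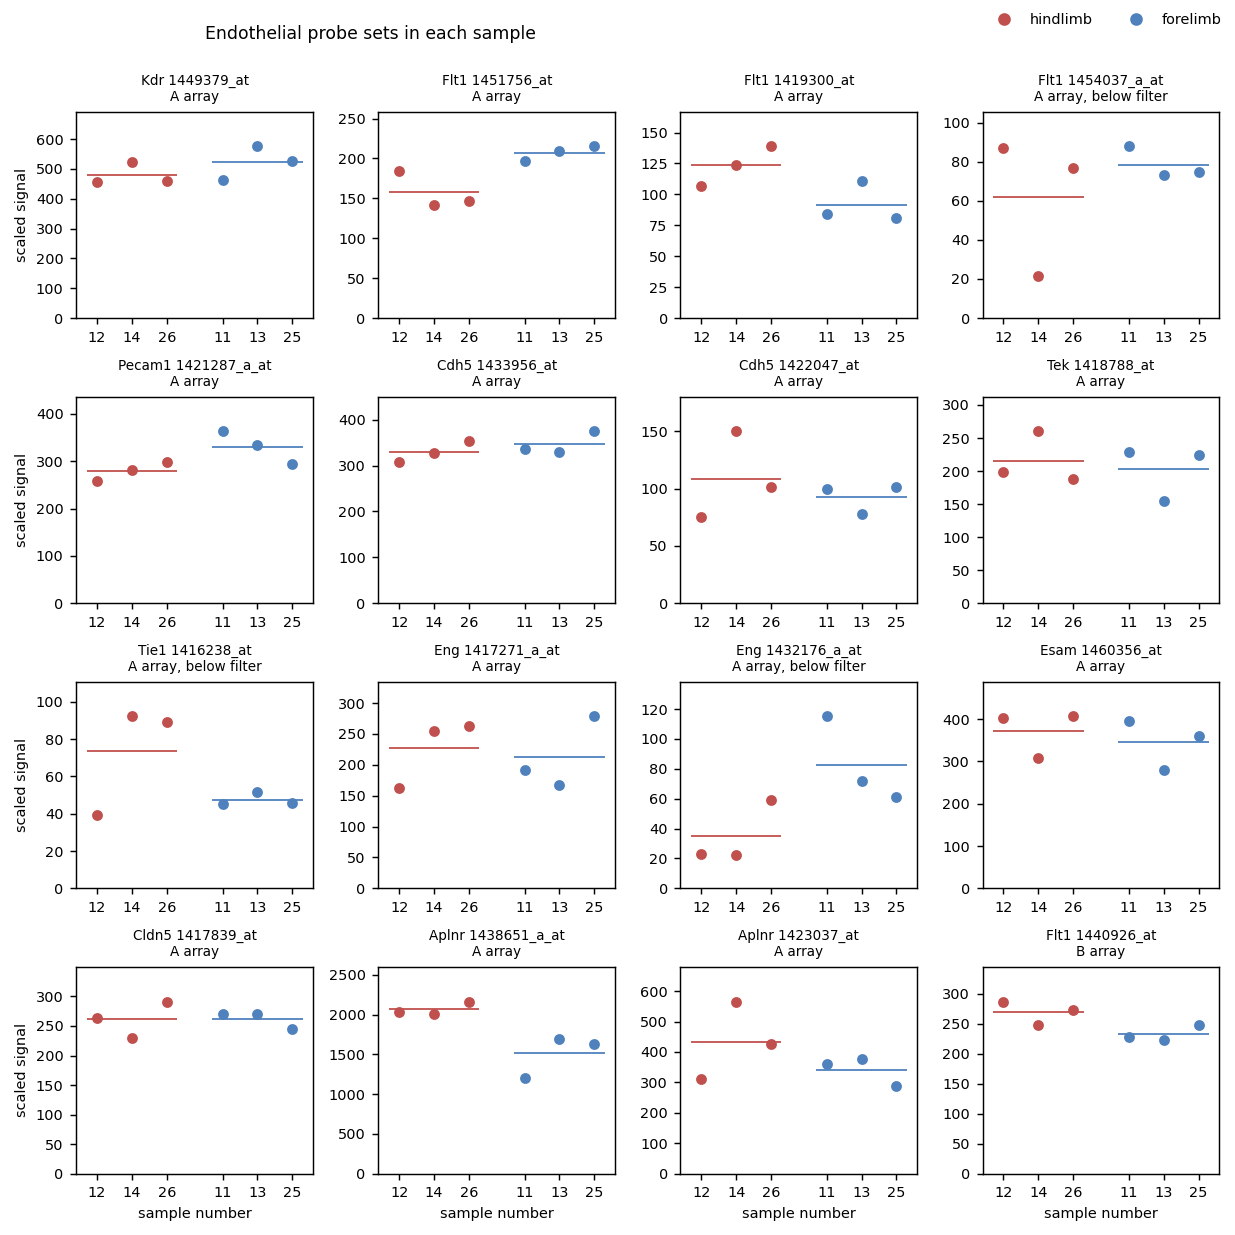
Scaled signal (linear axis from 0, arbitrary units) of each of the 16 endothelial probe sets in each sample, hindlimb samples 12, 14 and 26 left and forelimb samples 11, 13 and 25 right, with a line at each limb's mean (n = 3). Aplnr 1438651_a_at lies at 2008 to 2164 in hindlimb and 1204 to 1694 in forelimb samples, and the limbs of most other probe sets overlap.

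Kdr was measured evenly across the 6 samples. Its signal was 456, 524 and 460.3 in the hindlimb samples and 461, 577 and 526 in the forelimb samples. The highest sample, forelimb 13, was 1.27 times the lowest, hindlimb 12, and the limbs overlapped. The means were 479.9 ± 37.9 in hindlimb and 522 ± 57.8 in forelimb (SD, n = 3 each), a difference of -0.11 ± 0.14 (SE, 95% interval -0.41 to 0.19, limma adjusted p = 0.982).

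The probe sets of Flt1 did not give one direction. Flt1 1451756_at read 184, 142 and 147 in the hindlimb samples and 196, 209.8 and 216 in the forelimb samples. All 3 hindlimb samples lay below all 3 forelimb samples, and the difference was -0.34 ± 0.16 (95% interval -0.69 to 0.01, limma adjusted p = 0.910). Flt1 1419300_at, close to the filter, read 107, 124 and 139 in hindlimb and 83.8, 110.7 and 80.8 in forelimb. Here 3 hindlimb arrays and 1 forelimb array reached a signal of 100, so the probe set was tested mainly through its hindlimb arrays, and its difference was 0.33 ± 0.19 (95% interval -0.09 to 0.76, limma adjusted p = 0.940). On the B array Flt1 1440926_at read 287, 248 and 274 in hindlimb and 228, 222 and 249 in forelimb. The limbs overlapped only through hindlimb 14, which lay just below forelimb 25, with a difference of 0.19 ± 0.23 (95% interval -0.31 to 0.69, limma adjusted p = 0.948). Flt1 1454037_a_at was below 100 on every A array, at 21.7 to 87.0 in hindlimb and 73.1 to 88.1 in forelimb. Across the 6 samples Flt1 1451756_at ran against Flt1 1419300_at, with a Pearson r of -0.81, and with the third A-array probe set at 0.62. The files do not say which transcript forms these probe sets read, and the part of that in the opposite directions was not tested.

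Tek and Tie1, the angiopoietin receptor and its partner, showed no step between limbs that stood clear of the spread within them. Tek read 198, 260.4 and 188 in hindlimb and 229, 155 and 224 in forelimb samples. Hindlimb 14 was the highest and forelimb 13 the lowest of the 6, so the spread within a limb was larger than the step between limbs, which was 0.08 ± 0.19 (95% interval -0.33 to 0.49, limma adjusted p = 0.995). Tie1 stayed under 100 on every array, at 39.4, 92.3 and 89.0 in hindlimb and 45.3, 51.7 and 45.7 in forelimb samples. Hindlimb 12 was the lowest of all and the other 2 hindlimb samples the highest. Fitted without the filter, Tie1 gave a difference of 0.37 ± 0.23 (limma adjusted p = 0.950), and a level this low limits what the arrays could show for it.

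Of the junction genes, Cdh5 was steady on its brighter probe set and not on the dimmer one. Cdh5 1433956_at read 307, 327 and 354 in hindlimb and 336, 330.3 and 375 in forelimb samples. The limbs overlapped and the coefficient of variation over the 6 arrays was 6.97%, against a median of 14.4% over all tested A probe sets. Its difference was -0.07 ± 0.13 (95% interval -0.37 to 0.23, limma adjusted p = 0.995). The second Cdh5 probe set, 1422047_at, reached 100 on 2 hindlimb arrays and 1 forelimb array, ranged from 75.0 to 150.1 in hindlimb and from 77.5 to 101.7 in forelimb, and gave 0.14 ± 0.23 (limma adjusted p = 0.993). Its coefficient of variation was 26.7%, and the 2 probe sets had an r of 0.23. Without hindlimb 14 its difference was -0.060 and without hindlimb 12 it was 0.32.

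Pecam1, a junction protein also carried by platelets and leukocytes, averaged 279 ± 20.4 in hindlimb and 330.0 ± 35.3 in forelimb samples (SD, n = 3 each). Its values were 258, 281 and 299 in hindlimb and 363, 334 and 293 in forelimb, so only hindlimb 26 and forelimb 25 crossed. The difference was -0.22 ± 0.14 (95% interval -0.53 to 0.10, limma adjusted p = 0.955). Esam read 403, 308 and 407 in hindlimb and 396, 279 and 360.5 in forelimb samples, a difference of 0.10 ± 0.17 (95% interval -0.27 to 0.47, limma adjusted p = 0.993). In both limbs 1 sample was low, hindlimb 14 and forelimb 13. Cldn5, the claudin of endothelial tight junctions, had the smallest difference of the 12 probe sets. It read 263, 229 and 291 in hindlimb and 271, 270.4 and 245 in forelimb samples, which gave -0.01 ± 0.15 (95% interval -0.33 to 0.31, limma adjusted p = 0.999).

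Eng varied more within a limb than between limbs. Eng 1417271_a_at read 163, 254 and 263 in hindlimb and 192, 168 and 278 in forelimb samples, a difference of 0.08 ± 0.22 (95% interval -0.39 to 0.56, limma adjusted p = 0.995). The limbs covered nearly the same range. Eng 1432176_a_at read 22.9, 22.4 and 59.4 in hindlimb and 115, 71.6 and 61.4 in forelimb samples. There the hindlimb samples lay below the forelimb samples by a narrow gap, with only 1 of 6 arrays at 100 or above, and the fit without the filter gave -0.79 ± 0.26 (limma adjusted p = 0.797). The 2 Eng probe sets had an r of -0.06 with each other.

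Aplnr showed the largest difference of the 12 tested A-array probe sets, and it did not pass after adjustment. Aplnr 1438651_a_at read 2029.7, 2008 and 2164 in the hindlimb samples and 1204, 1694 and 1632 in the forelimb samples. All 3 hindlimb samples lay above all 3 forelimb samples, with means of 2067 ± 84.3 in hindlimb and 1509.8 ± 267 in forelimb (SD, n = 3 each). The difference was 0.46 ± 0.14 (95% interval 0.15 to 0.77, limma adjusted p = 0.632), and this was the 1 tested endothelial probe set with an unadjusted p under 0.05. The lowest value belongs to forelimb 11, whose limb was taken from its title on design A and is named in its label on design B. Without it the difference was 0.31 (limma adjusted p = 0.808). The second probe set, Aplnr 1423037_at, read 311, 566 and 425 in hindlimb and 360.0, 377 and 288 in forelimb. Those limbs overlapped, since hindlimb 12 lay below 2 forelimb samples, and the difference was 0.29 ± 0.20 (95% interval -0.15 to 0.73, limma adjusted p = 0.959). It was 0.09 without hindlimb 14 and 0.49 without hindlimb 12 (limma adjusted p = 0.961 and 0.753), and 0.18 without forelimb 25. The 2 Aplnr probe sets had an r of 0.34 over the 6 samples.

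**Figure D2:**
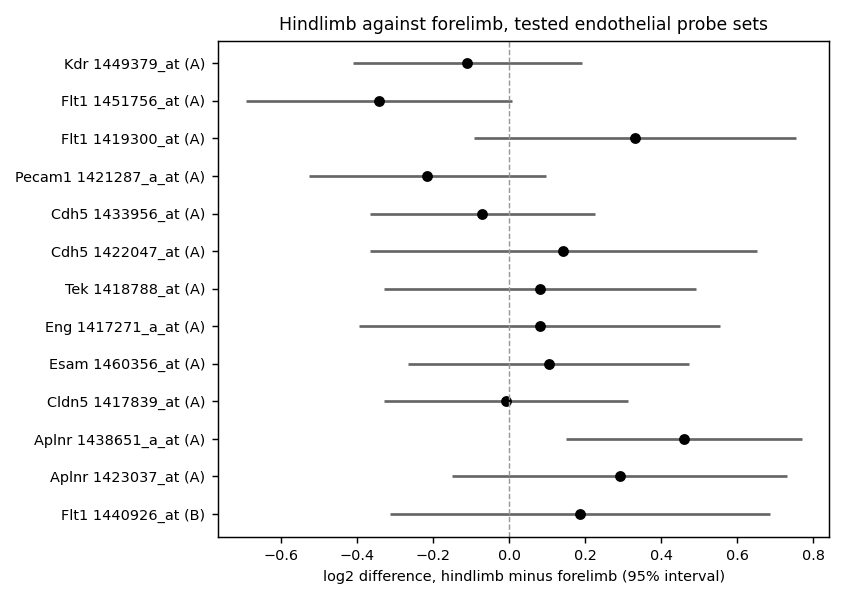
Log2 difference, hindlimb minus forelimb, of the 13 tested endothelial probe sets (points) with 95% intervals from the limma fit (bars), n = 3 samples per limb. The interval of Aplnr 1438651_a_at runs from 0.15 to 0.77, and the other 12 include 0, with that of Flt1 1451756_at ending at 0.01.

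By gene, taking the brightest tested probe set of each, 4 of 9 genes were higher and 5 lower in hindlimb by sign, with a median difference of -0.01. With the mean over each gene's tested probe sets the median over the 9 genes was 0.04. Over the 12 probe sets 7 were higher and 5 lower, with a median of 0.08, against -0.01 over all tested A probe sets. Among those higher were Flt1 1419300_at and Cdh5 1422047_at, which reached the filter on more hindlimb than forelimb arrays. The count and median over probe sets, and the mean over each gene's probe sets, therefore lean on the filter and show no tilt by themselves. In a sample of a whole autopod, fewer endothelial cells and less RNA per endothelial cell cannot be told apart.

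Markers of other cells were read beside the Aplnr difference. The summed signal of the surface ectoderm markers (9 of 10 tested, Fgf8 below the filter) was 3489 to 4096 in hindlimb and 4224 to 5364 in forelimb samples, without overlap. A sum is weighted to the brightest genes, here among them Krt14, at 540 to 827 in hindlimb and 982 to 1578 in forelimb. By sign 4 of the 9 were higher and 5 lower in hindlimb, with a median of -0.01. An unadjusted limma p under 0.05 was reached by 3 of the 9, where 5.54% of all tested A probe sets reached it. The basal keratin Krt15 gave -1.38 (limma adjusted p = 0.0590), and Krt14 gave -0.83 (adjusted p = 0.438), with -0.66 and 0.08 on its other probe sets. Krt8, a keratin of simple epithelium, gave 0.28 without overlap (limma adjusted p = 0.940) and had the lowest r of this list with the mean endothelial profile described below, -0.65, where Trp63 had the highest, 0.29. The summed erythroid signal (7 of 10 tested, Hba-a1 and Epb42 below the filter) was 32262 to 35708 in hindlimb and 28793 to 31444 in forelimb, also without overlap. Its largest part was Hbb-y, at 14876 to 16125 in hindlimb and 13253 to 14001 in forelimb. By sign 5 of the 7 were higher and 2 lower in hindlimb, and 2 of the 7 had an unadjusted limma p under 0.05. The embryonic globins Hbb-y and Hbb-bh1 gave 0.18 (limma adjusted p = 0.787) and 0.32 (adjusted p = 0.828), and on their other probe sets 0.06 and -0.05 for Hbb-y and 0.18 and 0.14 for Hbb-bh1. Klf1, at 64.1 to 161 and so near the filter, had the highest r with the endothelial profile, 0.88, and Alas2 the lowest, -0.77. All 14 limb mesenchyme markers were tested on the A array, where their summed signal was 20967 to 25479 in hindlimb and 23730 to 25961 in forelimb samples, overlapping. By sign 5 were higher and 9 lower, and besides Tbx5 and Pitx1 none passed. An unadjusted limma p under 0.05 was reached by 5 of the 14, Tbx5 and Pitx1 among them. Col1a1, picked with Col1a2 after their values were seen, gave -0.83 without overlap (limma adjusted p = 0.183), with -0.87 on its other probe set. Col1a2 gave -0.34 without overlap (adjusted p = 0.752), with -0.36 on its other A probe set and 0.57 on the B array. On the B array the mesenchyme sum (7 of 14 tested) was 43448 to 50761 in hindlimb and 36327 to 41649 in forelimb, without overlap. That sum includes Tbx4, a T-box factor of the hindlimb, which passed there at 1.99 (limma adjusted p = 0.000167). Tbx4 read 4604, 5558 and 4497 in hindlimb and 1124, 1222 and 1251 in forelimb samples. The lowest hindlimb sum (hindlimb 26) and the highest forelimb sum (forelimb 25) lay closer together than the Tbx4 signals of those samples. Without Tbx4 the sums of the limbs overlap, so their separation rests on a marker of limb identity. The sum does not measure the amount of mesenchyme. Prrx1 had the highest r with the endothelial profile of the mesenchyme markers, 0.90, and Pdgfra the lowest, -0.89. RNA integrity was read from the 3′ and 5′ control probe sets. Their log2 ratio on design A, 3′ over 5′, was -0.28 ± 0.02 in hindlimb and -0.18 ± 0.09 in forelimb for Gapdh (SD, n = 3 each, exact two-sided permutation p = 0.1, the smallest that 3 against 3 allows). Actb gave 0.24 ± 0.03 and 0.17 ± 0.08 there (exact permutation p = 0.3). The same samples on design B gave -0.14 ± 0.03 in hindlimb and -0.16 ± 0.09 in forelimb for Gapdh (exact permutation p = 0.8), in the opposite order. For Actb they gave 0.26 ± 0.06 and 0.27 ± 0.04 (exact permutation p = 0.9). On design A the ratio had an r with the mean endothelial profile of -0.64 for Actb and -0.01 for Gapdh. The part of these values in the Aplnr difference and in that profile was not tested.

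The second question was whether the endothelial genes moved together from sample to sample. Pearson r was taken over the 6 A arrays for the 36 pairs of the 9 tested genes, each by its brightest tested probe set. Of these, 18 were above 0 and 18 below, with a median of 0.00093, against 0.0037 over all pairs of tested A probe sets. The lowest was -0.94, between Kdr and Esam, and the highest 0.77, between Cdh5 and Eng. Tek with Cldn5 had -0.69 and Pecam1 with Aplnr -0.81. All pairs share the same 6 arrays and their scaling, so these values are a description and carry no p. Tested probe sets of the same gene also differed, with r of -0.81 for Flt1, 0.23 for Cdh5 and 0.34 for Aplnr. The values for a gene can thus depend on its probe set, and the part of measurement noise was not tested.

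**Figure D3:**
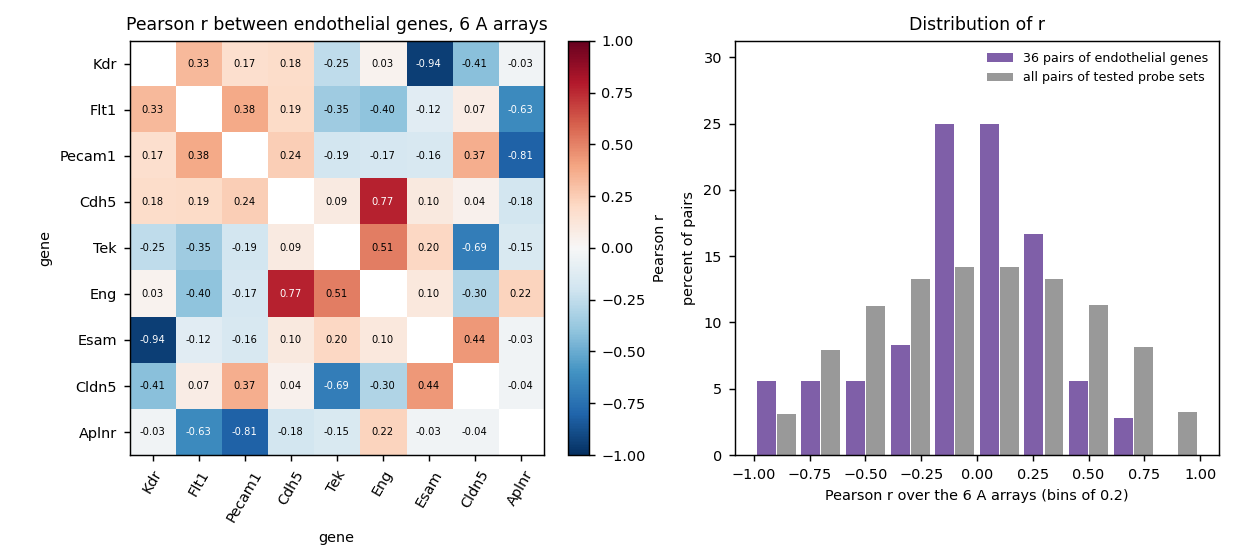
Left, Pearson r over the 6 A arrays for each pair of the 9 endothelial genes with a tested probe set (colour from -1 to 1, value printed). Right, percent of pairs in bins of r, for the 36 endothelial pairs and for all pairs of tested A probe sets; both centre near 0, with medians of 0.00093 and 0.0037.

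Each gene was also set against the mean standardised log2 profile of the other 8. Cdh5 followed it with an r of 0.94 and Eng with 0.40. The other 7 genes were below 0, between -0.07 for Pecam1 and -0.57 for Aplnr. The mean profile of all 9 was lowest in hindlimb 12, at -0.37, and highest in forelimb 25, at 0.38, in units of SD over the 6 arrays. In between, hindlimb 14 was at -0.19, hindlimb 26 at 0.23, forelimb 11 at 0.06 and forelimb 13 at -0.12, so the limbs overlapped. Hindlimb 26 and forelimb 25 were each the highest sample for 3 of the 9 genes, and hindlimb 12 was the lowest for 4. No sample was above the gene's own mean for more than 6 of the 9 genes or for fewer than 4.

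The 4 pairs of partners were tested by exact two-sided permutation over all 720 pairings, with Benjamini-Hochberg adjustment over the 4. Kdr with Flt1 had an r of 0.33 (exact p = 0.472) and a Spearman rho of 0.54 (exact p = 0.297). Tek with Tie1, the latter below the filter, had 0.23 (exact p = 0.650) and 0.09 (exact p = 0.919). Cdh5 with Pecam1 had 0.24 (exact p = 0.672) and 0.49 (exact p = 0.356), and Cldn5 with Esam 0.44 (exact p = 0.367) and 0.54 (exact p = 0.297). The adjusted p was 0.672 for all 4 values of r and at least 0.474 for rho. Without the 2 samples farthest from the median of the first gene, r was 0.12, -0.63, -0.05 and -0.19 in the order given. Taken within limbs, as deviations from the limb mean, r was -0.14, 0.14, -0.11 and 0.47. No relation between partners was detectable with 6 samples and the brightest probe set of each gene.

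The 10 genes whose A-array signal was most like the mean endothelial profile were Pitpnb, Yipf3, Zgpat, 2310061I04Rik, Zc2hc1c, Ap2a2, Scgb3a1, Ehd1, Myef2 and Pdia6, with r over 6 samples of 0.995 for Pitpnb to 0.965 for Pdia6. In all 11 of 15338 tested probe sets, or 0.0717%, reached 0.965. None of these genes is in the endothelial lists given below.

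Genes of the same vessels were read on the A array for comparison. Over all tested probe sets 5.54% had an unadjusted limma p under 0.05 on each design, the share to set beside the counts below. Of 30 other endothelial surface and junction genes, 22 were tested, and 0 passed in either direction by limma (1 at an unadjusted p under 0.05). By sign 9 were higher and 13 lower in hindlimb, with a median of -0.02. Efnb2, the ephrin of arterial cells that limb mesenchyme also makes, gave -0.49 (adjusted p = 0.805, limbs overlapping) and Flt4, the receptor for Vegfc and Vegfd, -0.30 (adjusted p = 0.929). Their other tested probe sets gave -0.36 for Efnb2 and 0.07 for Flt4. Their r with the mean endothelial profile was above 0 in 12 of 22, with a median of 0.07, where all tested probe sets had a median of 0.07. It ranged from 0.88 for Gja4, a gap junction protein of arteries, to -0.29 for Mcam. Acvrl1, Lyve1, Gja5 and Vwf stayed below the filter, Vwf with means of 5.71 in hindlimb and 5.62 in forelimb. On the B array 0 of 6 passed and 1 had an unadjusted p under 0.05. There Adgrf5 gave 0.31 (limma adjusted p = 0.896) and Mmrn2 -0.33 (adjusted p = 0.904). Another Adgrf5 probe set gave 0.68, and the other 3 of Mmrn2 gave -0.15, 0.15 and 0.21.

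Of 16 endothelial transcription factors, 13 were tested on the A array and 0 passed in either direction by limma (3 at an unadjusted p under 0.05), with 6 higher and 7 lower by sign. On the B array 0 of 4 passed, and 2 of the 4 had an unadjusted p under 0.05. The share over all tested probe sets at that p was 5.54% on each design, and Nr2f2 is in both counts. Nr2f2, a nuclear receptor of venous identity that is also made by mesenchyme, read 693, 467 and 703 in hindlimb and 892, 1056 and 747 in forelimb samples. Its difference was -0.52 without overlap (adjusted p = 0.715), and its other tested probe sets gave -0.43 and -0.48 on the A array and -0.36 and -0.09 on the B array. Fli1, an ETS factor of endothelial and blood cells, gave 0.48 (adjusted p = 0.855), with 0.42 on its other probe set. Erg, an ETS factor of endothelium and cartilage, was tested only on the B array, where it read 1521, 1523 and 1284 in hindlimb and 1776, 1902 and 1932 in forelimb samples, a difference of -0.37 (limma adjusted p = 0.883). Fli1 and Erg thus had opposite signs, neither past the threshold, and they were read on different designs. They were named for their small p and do not stand for the ETS factors of the list. On their brightest A probe sets Ets1 gave -0.20, Etv2 -0.26 and Elk3 0.24, none past the threshold. Both signs occurred among the probe sets of Ets1 and of Elk3. Sox18 had the highest r with the endothelial profile in this list, 0.69, and Sox7 the lowest, -0.27.

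Of 12 ligands of these receptors, 7 were tested on the A array. By limma 0 passed and 0 had an unadjusted p under 0.05, and 6 of the 7 were lower in hindlimb by sign, with a median of -0.12. Vegfd, a ligand of Flt4, gave -0.26 (adjusted p = 0.955) and Pgf, a ligand of Flt1, 0.35 (adjusted p = 0.963). Vegfd had the highest r with the endothelial profile, 0.61, and Bmp10, a ligand of the Eng and Acvrl1 receptor complex, the lowest, -0.67. Apln, which encodes the Aplnr ligand apelin and was picked for that after its values were seen, read 603, 513 and 616 in hindlimb and 536, 656 and 709 in forelimb samples, a difference of -0.12 (adjusted p = 0.982). On the B array Apela, which encodes Elabela, gave -0.38 (limma adjusted p = 0.904), Angpt1, the activating ligand of Tek, 0.09 (adjusted p = 0.959), and Vegfc -0.11 (adjusted p = 0.959), with 0 of 3 past the threshold and 0 at an unadjusted p under 0.05.

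**Figure D4:**
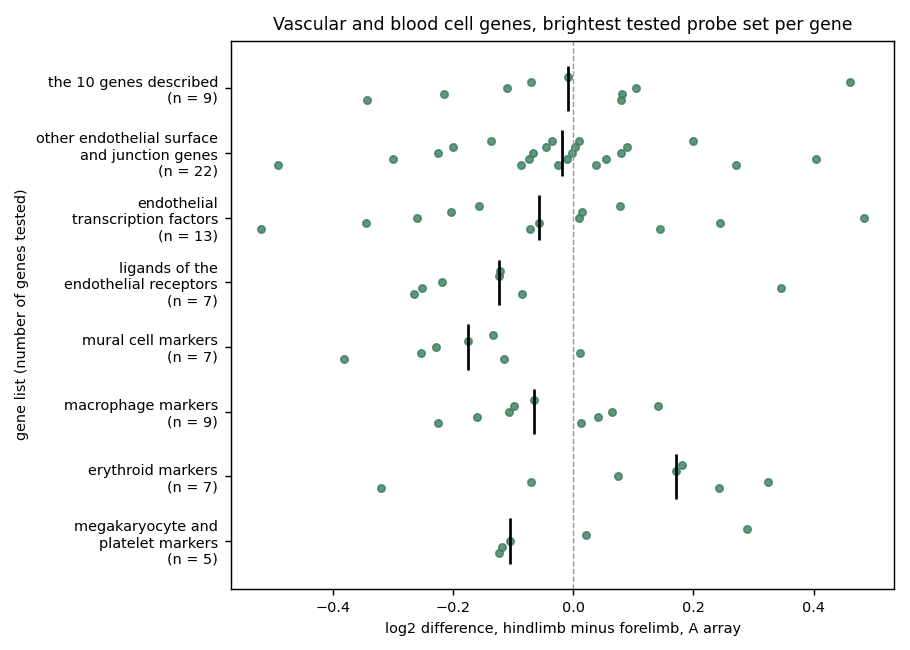
Log2 difference, hindlimb minus forelimb, on the A array for the brightest tested probe set of each gene (points; n is the number of genes tested, 3 samples per limb), with the median of each list (bar). Medians run from -0.18 for mural cell markers to 0.17 for erythroid markers, and that of the 9 tested of the 10 endothelial genes is -0.01.

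Mural cells, the pericytes and smooth muscle around vessels, were read through 7 tested genes of 11. By limma 0 passed and 1 had an unadjusted p under 0.05, 6 of 7 were lower in hindlimb by sign, and the median was -0.18. Cspg4, a pericyte proteoglycan also made by cartilage progenitors, gave -0.38 (adjusted p = 0.809) and Acta2, smooth muscle actin, -0.25 (adjusted p = 0.916), both without overlap. Tagln had an r of 0.84 with the endothelial profile and Notch3 -0.09. Pecam1 and Esam are also made by megakaryocytes, and Pecam1 by leukocytes, so markers of blood cells were read too. Of 13 macrophage markers 9 were tested and 0 passed (0 at an unadjusted p under 0.05), with 4 higher and 5 lower by sign. Csf1r gave -0.16, with 0.10 and 0.11 on its other tested probe sets, and Adgre1 -0.23 (limma adjusted p = 0.964 for both). Adgre1 also had the highest r with the endothelial profile, 0.66, and C1qc the lowest, -0.43. All 5 megakaryocyte markers with an A probe set were tested and 0 passed (0 at an unadjusted p under 0.05), with Gp9 at 0.29 and Pf4 at -0.10 (limma adjusted p = 0.963 and 0.982). Itga2b had the highest r with the endothelial profile, 0.51, and Gp1bb the lowest, -0.52.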

How the data were processed

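Hindlimb and forelimb autopods, 3 samples each, were read on the A and B designs of the Affymetrix MOE430 set. Per the labels, the deposited intensities are linear MAS5.0 signals, 1 per probe set, though the label of forelimb 11 on design A lacks that statement. Their trimmed mean was 350.1 throughout design A and 70.0 throughout design B. Signals were rescaled here to a trimmed mean of 500 (2% cut at each end), by a factor of 1.43 on design A and 7.14 on design B. On the deposited scale the same filter therefore sits lower on design B. The deposited means were already level within a design, so the factors do not tell how bright the designs were before scaling. Levels were kept apart by design. The tested scale was log2(signal + 32), for probe sets with a signal of 100 or higher on 3 or more of the 6 arrays. The software version is not given in the sources used here.

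Symbols are those of the platform annotation, brought up to date through a RefSeq table (GRCm38.p6, names only). Design A had 20393 probe sets with a single symbol, 691 with several and 1606 without one, and 20364 matched the table. For design B the counts were 14674, 245, 7656 and 14499. No probe set with several symbols named any of the 10 genes.

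The limbs were compared in limma 3.58.1 under R 4.3.3, with a trended variance prior and two-sided p-values adjusted by Benjamini-Hochberg over all tested probe sets of a design, at a threshold of 0.05. The number of arrays limits the precision, with a median SE of 0.16 over the tested A probe sets. Correlations, permutation tests and figures used Python 3.11.15, scipy 1.17.1 and matplotlib 3.10.9. The fit was tested on simulated data with 200 changed probe sets per design. The 10 genes and all lists were chosen with earlier results of these data known. All probe sets of the 10 genes are named or counted. From each other list the rule took the genes that passed (at most 4), otherwise the 2 with the smallest limma p, and the genes of highest and lowest r with the mean endothelial profile. On design B only the surface, factor and ligand lists are given this way, with all 3 ligands, and the mesenchyme list by the gene that passed. The 10 genes most like that profile were added. The alternatives were other pseudocounts (1 and 100), quantile normalization, the deposited values unscaled, filters at 200 or none, a variance prior without trend, weighted arrays, consecutive sample numbers as a block, the mean over a gene's probe sets, and each sample left out.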

Additional observations from a re-analysis of the deposited data

How the results depend on the processing

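The count of endothelial probe sets past the threshold was 0 on both designs under all 15 alternatives. The 13 tested probe sets gave 192 recomputed differences, 12 with the sign turned, in 5 probe sets that lay within their own SE of 0. The other 8 kept their sign, though Kdr, Cdh5 1433956_at and Flt1 1440926_at among them also lay within their own SE of 0. Aplnr 1438651_a_at ran from 0.31 to 0.55, with an unadjusted limma p under 0.05 in 15 of 15 alternatives and an adjusted p of 0.405 to 0.991. Flt1 1451756_at ran from -0.44 to -0.26. Cldn5 turned to 0.035 under quantile normalization and 0.061 with array weights. Leaving out each sample gave -0.082 to 0.073 for Cldn5, -0.060 to 0.32 for Cdh5 1422047_at, -0.074 to 0.17 for Tek, -0.053 to 0.27 for Eng 1417271_a_at and -0.028 to 0.22 for Esam. As deviations from the limb mean, r turned to -0.14 for Kdr with Flt1 and -0.11 for Cdh5 with Pecam1, and the second turned to -0.078 under quantile normalization. The median r of the other endothelial genes with the endothelial profile was 0.20 with the mean over a gene's probe sets and -0.056 to 0.21 without each sample; without hindlimb 12 it fell below 0. The cause was not tested. The limbs share no sample number, so the labels give no pairing. A fit with consecutive numbers as a block, which the labels do not call pairs, changed no call. The 3 arrays per limb limit what could be shown, with a median SE of 0.16 over the tested A probe sets.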
